A study of Mus musculus with 16 samples.

Results

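The nuclear genes of oxidative phosphorylation were followed across 16 RNA libraries from mouse neurons that carried a short hairpin RNA or an empty vector. A gene belonged to the set if it was protein-coding, if its symbol began with Nduf, Uqcr, Atp5, Cox4, Cox5, Cox6, Cox7 or Cox8 or was Sdha, Sdhb, Sdhc or Sdhd, and if it had at least 10 counts in 4 or more libraries. Of 55335 genes in the count table, 107 had such a symbol, 94 of these were protein-coding, and 88 passed the minimum. The 88 genes comprise 7 core subunits, 29 accessory subunits and 8 assembly factors of complex I, 4 subunits of complex II, 8 of complex III, 15 of complex IV and 17 genes of the ATP synthase. Ndufa4 was placed in complex IV, where its protein is found, despite its name. All 88 were among the 19479 genes tested.

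Primary cultures of perinatal mouse forebrain neurons were transduced with lentiviral vectors, and total RNA depleted of ribosomal RNA was sequenced in 4 groups of 4 libraries. One group received an unmutated hairpin, another a version of it with 2 point mutations (the 2-mutation hairpin), another a version with 5 (the 5-mutation hairpin), and the last an empty vector without a hairpin. All groups share the culture and the viral transduction. The study is about effects of hairpins on neuronal transcripts that do not depend on the intended target, and the comparisons ask how these genes differed between each hairpin and the vector and among the hairpins. The labels do not name the target, so no check of it was made, nor the promoter that drives the hairpin, the strain or the number of animals. They do not say that the replicates are separate cultures, so p-values measure the spread between these libraries, which may be technical.

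Oxidative phosphorylation is the process by which mitochondria use electrons from nutrients to make ATP. Complex I takes electrons from NADH and complex II takes them from succinate, ubiquinone carries them to complex III, cytochrome c carries them on to complex IV, and complex IV hands them to oxygen. Complexes I, III and IV pump protons across the inner membrane, and the ATP synthase lets these protons flow back to drive ATP synthesis. Most subunits are encoded in the nucleus and imported, while a few hydrophobic core subunits are encoded in mitochondrial DNA. Neurons depend heavily on this pathway to power ion pumps and synapses.

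Total counts ranged from 33795369 to 49824569 per library, and the 88 genes took 0.797% of the counts with the unmutated hairpin, 0.847% with the 2-mutation hairpin, 0.732% with the 5-mutation hairpin and 0.776% with the empty vector. A single locus resembling ribosomal RNA, Gm26917, took 7.61%, 11.1% and 8.75% of the counts with the unmutated, 2-mutation and 5-mutation hairpins and 6.16% with the vector. Without it and the related locus Gm42418 the counts given further on were 47 higher and 15 lower for the 2-mutation hairpin over the vector (50 and 13 with them) and 5 and 56 for the 5-mutation hairpin (6 and 54 with them). The 37 genes of the mitochondrial chromosome had 0 counts in every library of the table, so the mitochondrial share of the pathway is not analysed here. The summed level of 8 pan-neuronal markers averaged 5260, 6200 and 6220 CPM (counts scaled to a common library total) with the unmutated, 2-mutation and 5-mutation hairpins and 6260 CPM with the empty vector, and that of 6 microglial markers 1.15 to 2.99 CPM. In bulk RNA fewer cells of a type and less RNA per cell cannot be told apart. Summed excitatory markers averaged 1050, 1410 and 553 CPM with the unmutated, 2-mutation and 5-mutation hairpins and 1050 CPM with the empty vector, and summed inhibitory markers 180, 211 and 226 CPM against 541 CPM. Of the 5 excitatory markers, 3 rose and 1 fell, 4 rose and 0 fell, and 1 rose and 2 fell with these hairpins, and of the 6 inhibitory markers 0 rose and 5 fell, 1 rose and 4 fell, and 0 rose and 6 fell. Every marker of both lists was detected in every group. The cultures also held astrocyte transcripts, with 8 markers summing to 809, 808 and 593 CPM against 1030 CPM. Progenitor markers summed to 47.8, 86.1 (73.6 to 113) and 33.1 CPM against 38.2 CPM (34.7 to 42.8), oligodendrocyte-lineage markers to 86.0, 54.3 and 97.3 against 62.3 CPM, and fibroblast markers to 31.3, 31.2 and 65.0 (22.6 to 170) against 29.0 CPM. The oligodendrocyte markers Sox10 and Mog were close to 0 throughout, and the part of these lists in the results was not tested. The second library of the 5-mutation hairpin gave the lowest sum of every complex. Relative to each gene's mean over all libraries, the median of the 88 genes in that library was -0.37 (log2). The other libraries of that hairpin lay at -0.05 to -0.20, and those of the vector at -0.03 to 0.07.

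The levels of the genes differed widely. Measured per kilobase of merged exon length and averaged over all libraries, the median of the 88 genes was 37.1 CPM per kb, against 2.69 CPM per kb for all tested genes. The highest were Cox8a, a small complex IV subunit, at 256 CPM per kb, Cox6b1, which bridges the complex IV dimer, at 239 CPM per kb, and Atp5a1, the alpha subunit of the ATP synthase, at 234 CPM per kb. With the length of the principal transcript in place of merged exons the catalytic beta subunit gene Atp5b came first, at 506 CPM per kb, then Atp5a1 at 297 and Cox8a at 288 CPM per kb, so the order at the top depends on the length used. At the low end stood Cox7a1, the heart and muscle form of a complex IV subunit, at 0.722 CPM per kb, followed by the complex I assembly factor Ndufaf2 at 1.51 and the accessory subunit Ndufb2 at 1.72 CPM per kb. By transcript length these stood at 0.983, 6.64 and 21.3 CPM per kb. Just outside the minimum lay Ndufa4l2 with 2 to 12 counts per library, while Cox7a1, just inside, had 7 to 31 counts. The other genes under the minimum were Cox4i2, Cox7b2, Cox8b, Cox8c and a second Atp5o entry, with 0 to 9 counts. Near-identical copies exist for 24 of the 88 genes (43 copies, of which 37 are annotated pseudogenes) and held at most 2.71% of the counts of a gene and its copies. Exon bases are shared with another gene in 31 of the 88, in 28 of them on the opposite strand, and whether counting used the strand is not given in the sources used here.

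The factors NRF1, GABP (NRF2, of the ETS family) and YY1 have textbook binding sites near the starts of many respiratory genes, and the promoter windows of the members were searched for the letters GCGCATGCG (NRF1), CCGGAAG (ETS) and AAGATGGC (YY1) on both strands. RefSeq windows of the GRCm38.p6 assembly, from 250 bases before to 50 bases after the start, were at hand for 72 of the 88 genes. The NRF1 letters were found in 10 windows (13.9%), against 2.61% of 17491 protein-coding genes. The ETS letters were found in 18 (25.0%, against 12.9%) and the YY1 letters in 10 (13.9%, against 3.57%). The stretches below were chosen with the values known, to set promoters of genes that rose with the 2-mutation hairpin (Cox6a1, Uqcrh and Atp5l) beside those of genes that fell with it (Uqcr11, Ndufaf4 and Ndufaf2). Each is the longest run of the 250 bases before the RefSeq start that no annotated exon covers, written 5′ to 3′ on the gene's own strand, with the searched letters in capitals.
Cox6a1: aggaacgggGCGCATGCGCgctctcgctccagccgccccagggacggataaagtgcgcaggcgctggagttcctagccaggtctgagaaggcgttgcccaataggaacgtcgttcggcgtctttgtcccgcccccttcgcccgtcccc
Uqcrh: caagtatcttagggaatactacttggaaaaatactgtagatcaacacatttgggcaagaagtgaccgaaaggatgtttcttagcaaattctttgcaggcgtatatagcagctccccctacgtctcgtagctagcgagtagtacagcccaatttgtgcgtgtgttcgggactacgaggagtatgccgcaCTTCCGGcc
Atp5l: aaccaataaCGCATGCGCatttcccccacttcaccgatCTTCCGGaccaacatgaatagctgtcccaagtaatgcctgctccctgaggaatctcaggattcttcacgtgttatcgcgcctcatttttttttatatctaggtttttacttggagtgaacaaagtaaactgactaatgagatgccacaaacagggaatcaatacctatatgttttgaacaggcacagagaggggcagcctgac
Uqcr11: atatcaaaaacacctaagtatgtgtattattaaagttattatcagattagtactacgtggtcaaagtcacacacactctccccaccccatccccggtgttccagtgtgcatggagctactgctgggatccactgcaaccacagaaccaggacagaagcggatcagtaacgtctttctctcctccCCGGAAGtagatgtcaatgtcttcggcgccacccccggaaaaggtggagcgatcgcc
Ndufaf4: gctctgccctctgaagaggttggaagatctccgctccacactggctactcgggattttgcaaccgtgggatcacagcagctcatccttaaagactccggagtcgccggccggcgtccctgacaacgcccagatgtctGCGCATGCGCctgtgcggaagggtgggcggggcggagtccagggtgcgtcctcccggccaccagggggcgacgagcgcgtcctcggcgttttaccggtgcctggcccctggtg
Ndufaf2: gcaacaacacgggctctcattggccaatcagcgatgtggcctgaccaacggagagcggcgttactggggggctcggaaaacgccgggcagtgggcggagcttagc
They lie at chr5:115348982-115349129 (minus strand), chr4:116075072-116075268 (minus), chr9:44920752-44920992 (minus), chr10:80406831-80407071 (minus), chr4:24897833-24898082 (plus) and chr13:108158626-108158730 (minus), all in GRCm38.p6. The capitals mark NRF1 letters, which overlap on both strands, in Cox6a1 and Ndufaf4, both NRF1 and ETS letters in Atp5l, and ETS letters in Uqcrh and Uqcr11 (read on the reverse strand in Atp5l and Uqcrh), and none of the searched letters is in the Ndufaf2 stretch. Since the stretches were picked from both directions, they cannot show whether the letters go with a direction. They also leave out part of some windows, where Cox6a1 has ETS letters and Uqcr11 has NRF1 letters. In the comparison of the 2-mutation with the 5-mutation hairpin described further on, the median log2 fold change was 0.16 over the 10 genes with NRF1 letters and 0.40 over the 62 without, 0.38 over the 18 genes with ETS letters and 0.41 over the 54 without, and 0.34 over the 10 genes with YY1 letters and 0.40 over the 62 without.

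With the 2-mutation hairpin most structural subunits were higher than with the empty vector. Of the 88 genes, 50 rose and 13 fell at an adjusted p below 0.05 (edgeR quasi-likelihood test, Benjamini-Hochberg over all genes tested). Over all tested genes 63.3% were called, 32.5% higher and 30.8% lower, so the share of these genes that rose (56.8%) was above the background and the share that fell (14.8%) below it. The median log2 fold change was 0.22, against -0.01 over all tested genes and 0.07 over the 14470 protein-coding ones, of which 40.0% were higher and 32.4% lower. The rises were small. Beyond a 1.2-fold change, 21 genes rose (23.9%, near the background of 20.9%) and 6 fell (6.82%, against 22.3%).

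**Figure D1:**
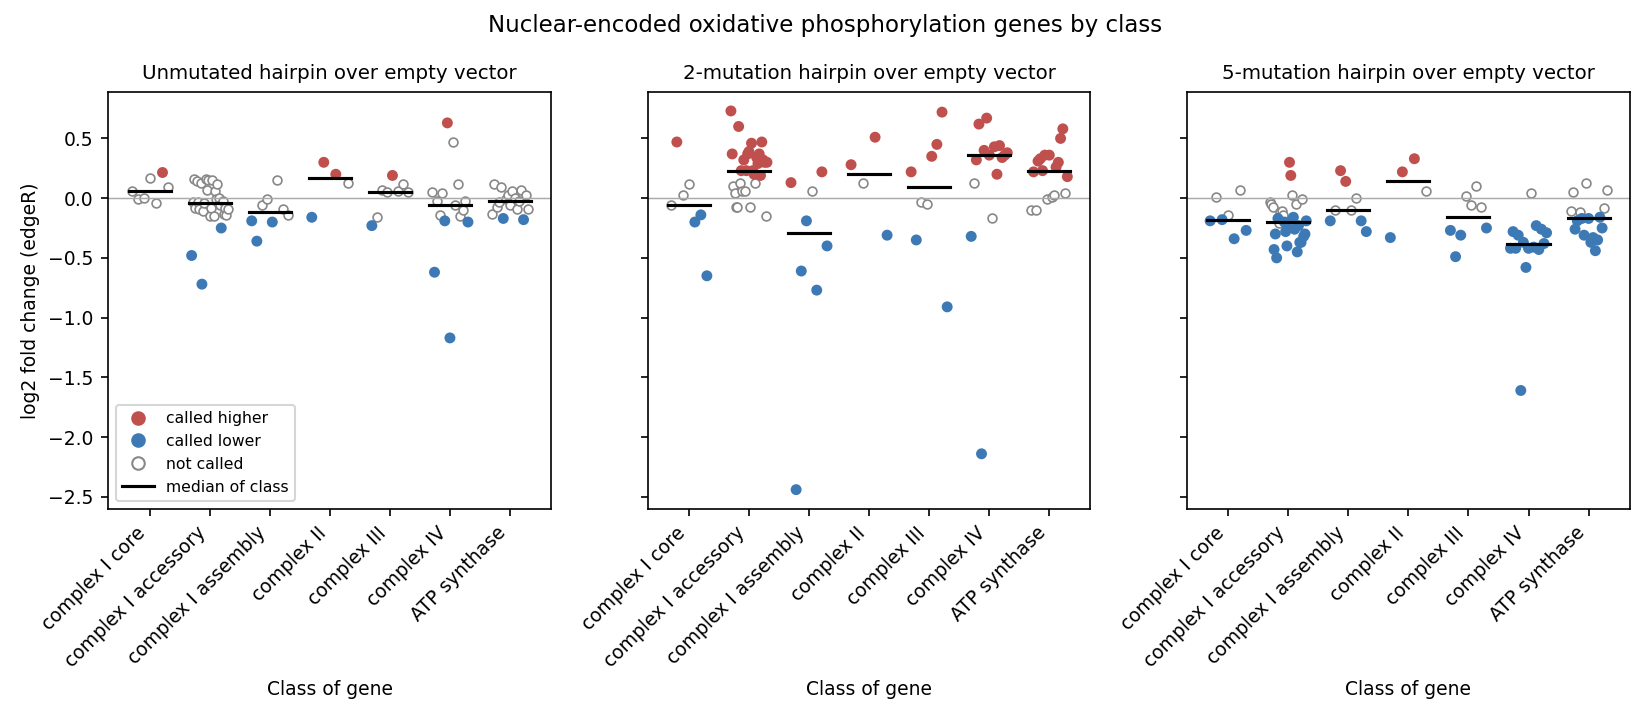
Log2 fold change (y axis, edgeR) of each of the 88 genes by class (x axis) for the unmutated, 2-mutation and 5-mutation hairpins over the empty vector. Filled points passed the test, open points did not, and bars are class medians, which for complex IV were -0.06, 0.36 and -0.38.

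The genes that rose with the 2-mutation hairpin came from every complex, most often from the accessory subunits of complex I (19 of 29 rose, 0 fell), complex IV (11 rose, 2 fell of 15) and the ATP synthase (11 rose, 0 fell of 17). Uqcrh, the hinge protein that holds cytochrome c1 in complex III, had 118, 113, 107 and 115 CPM with the 2-mutation hairpin and 73.4, 68.1, 64.1 and 68.9 CPM with the empty vector. All 4 libraries lay above the empty vector range, a log2 fold change of 0.72 ± 0.07 (SE, adjusted p = 2.28e-08, edgeR). Ndufa1, an X-linked accessory subunit needed to build the membrane arm of complex I, had 40.3, 40.6, 40.2 and 38.8 CPM against 25.9, 21.9, 24.6 and 24.2 CPM (log2 fold change 0.73 ± 0.07, adjusted p = 1.67e-08, edgeR). Cox6a1, the ubiquitous form of a regulatory subunit of complex IV, had 198, 212, 204 and 193 CPM with this hairpin and 135, 135, 124 and 132 CPM with the empty vector. Its log2 fold change was 0.62 ± 0.09 (adjusted p = 1.8e-05, edgeR), again without overlap of the groups. Atp5l, subunit g of the ATP synthase, had 101, 96.7, 92.7 and 102 CPM against 72.2, 66.0, 67.0 and 71.2 CPM (log2 fold change 0.50 ± 0.05, adjusted p = 2.51e-08, edgeR).

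Of the 8 assembly factors 5 fell and 2 rose. These proteins build complex I and are not part of the finished enzyme. Ndufaf2, a relative of the subunit Ndufa12 that acts late in assembly, fell most of all 88 genes, to 1.19, 1.17, 0.94 and 1.27 CPM, against 6.63, 5.65, 6.0 and 6.59 CPM with the empty vector. This was 5.43-fold lower (log2 fold change -2.44 ± 0.13, adjusted p = 3.58e-13, edgeR). An annotated noncoding RNA on the opposite strand, B230220B15Rik, shares 65.6% of the exon length of Ndufaf2 and had 0 CPM in every library. Ndufaf6, which human studies tie to the early stages of complex I assembly, had 5.27, 5.26, 4.40 and 4.49 CPM with the 2-mutation hairpin and 9.18, 8.15, 8.03 and 7.84 CPM with the empty vector (log2 fold change -0.77 ± 0.09, adjusted p = 7.61e-08, edgeR). Ndufaf3 and Ndufaf4 act together in early assembly. Ndufaf3 had 13.7, 14.0, 13.9 and 14.3 CPM against 22.5, 20.4, 21.8 and 20.6 CPM (log2 fold change -0.61 ± 0.06), and Ndufaf4 fell by 0.19 ± 0.06 on the log2 scale. The adjusted p was 1.16e-08 for Ndufaf3 and 0.00607 for Ndufaf4 (edgeR). Ndufaf8 also fell, while Ndufaf7, a mitochondrial methyltransferase, and Ndufaf1 rose, and Ndufaf5 was not called (log2 fold change 0.06 ± 0.05).

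Single subunits also fell within complexes in which some other members rose. Uqcrq, a small complex III subunit, had 46.5, 46.9, 39.2 and 42.8 CPM with the 2-mutation hairpin and 88.1, 79.6, 75.3 and 86.2 CPM with the empty vector, 1.88-fold lower (log2 fold change -0.91 ± 0.09, adjusted p = 1.43e-07, edgeR). Ndufv2, an iron-sulfur core subunit of the part of complex I that accepts electrons from NADH, had 66.4, 67.6, 65.0 and 63.8 CPM against 111, 99.3, 99.7 and 102 CPM (log2 fold change -0.65 ± 0.06, adjusted p = 2.28e-09, edgeR). Neither gene overlapped between the groups. Uqcr11, also of complex III, fell to 52.6, 48.3, 42.1 and 52.6 CPM, against 67.2, 58.1, 58.0 and 65.5 CPM (log2 fold change -0.35 ± 0.10, adjusted p = 0.00521, edgeR). Cox6a2, the heart and muscle form that pairs with Cox6a1, fell most in complex IV and is described with the paralogs.

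**Figure D2:**
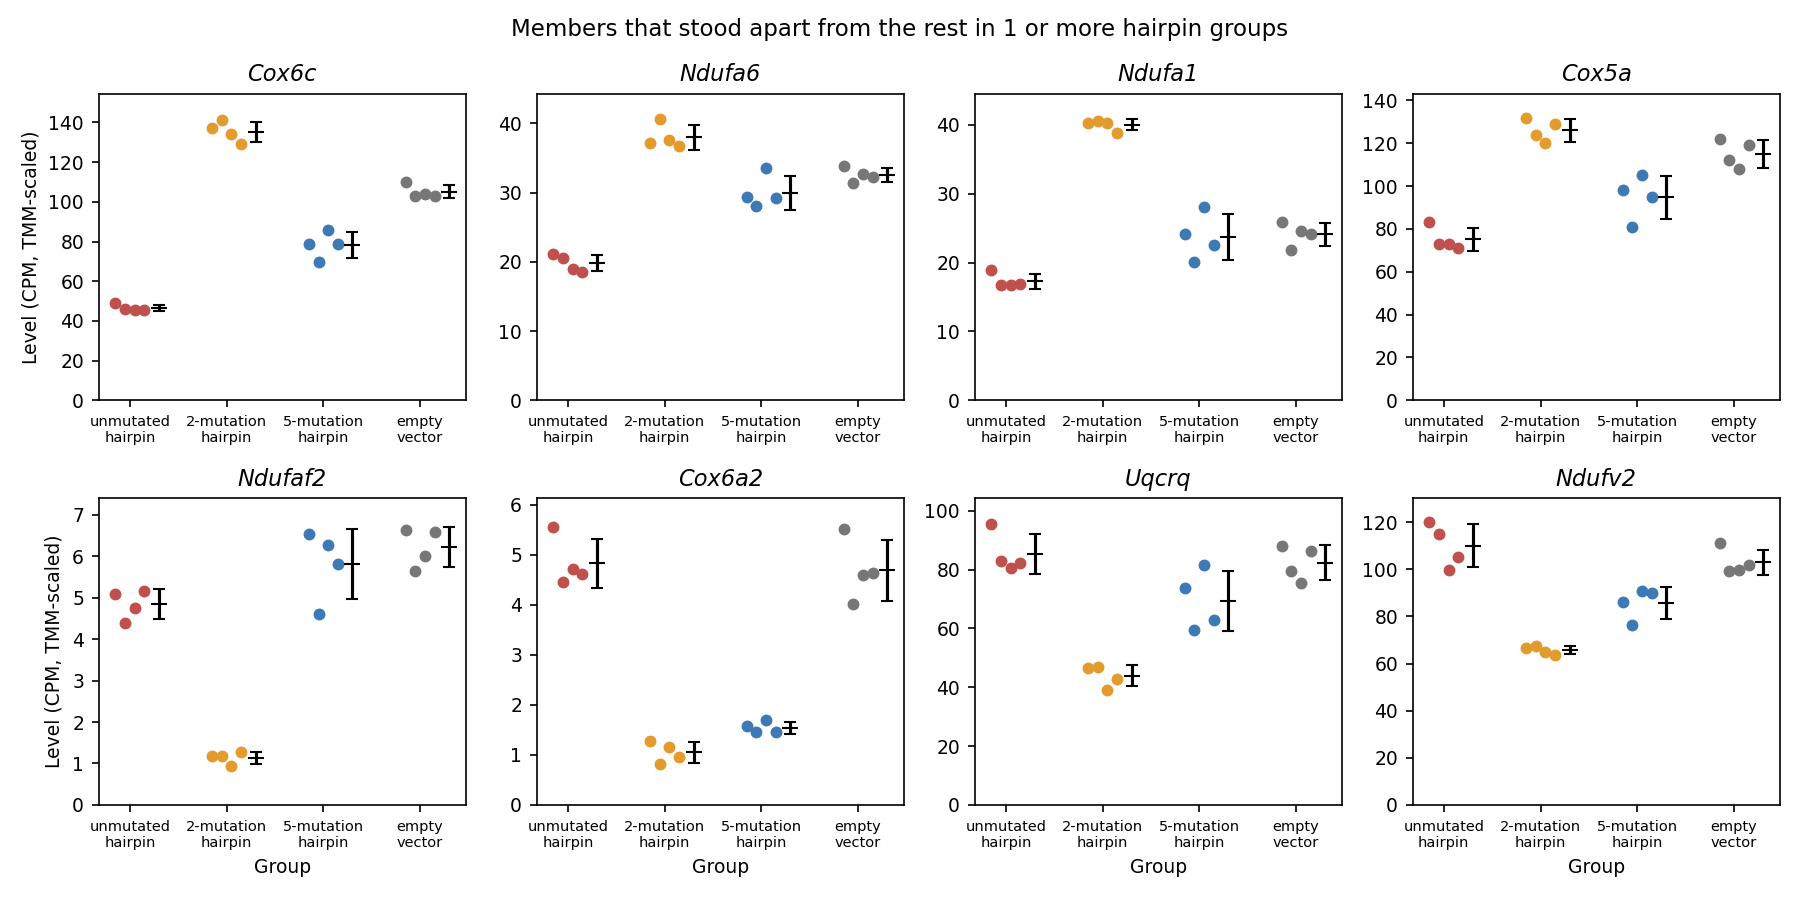
Level (y axis, TMM-scaled CPM) of 8 genes described in the text, in each of the 4 groups (x axis). Points are libraries and bars mean ± SD (n = 4), and Cox6c averaged 46.5, 135, 78.2 and 105 CPM from left to right.

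With the 5-mutation hairpin the same set was mostly lower. Of the 88 genes, 6 rose and 54 fell, where 54.9% of all tested genes were called, 28.4% higher and 26.5% lower. The share that fell (61.4%) was above the background and the share that rose (6.82%) below it, and the median log2 fold change was -0.20, against 0.03 over all tested genes. Of the protein-coding genes 32.9% were higher and 31.4% lower, with a median of 0.02. Beyond a 1.2-fold change, 0 genes rose (against 16.3% of all genes) and 14 fell (15.9%, near the background of 16.2%). In complex IV, 14 of 15 genes fell and Cox7a1 alone was not called (log2 fold change 0.04 ± 0.33). ATP synthase genes fell in 11 of 17 cases, and accessory subunits of complex I in 17 of 29, while 2 rose. Without the second library of this hairpin, 45 genes fell and 7 rose, with a median of -0.15.

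Apart from Cox6a2 and Cox6b2, described with the paralogs, no gene fell by more than 0.50 on the log2 scale. Ndufa2, an accessory subunit with a thioredoxin-like fold, had 28.2, 23.4, 30.4 and 23.7 CPM with the 5-mutation hairpin and 38.0, 37.0, 36.2 and 37.8 CPM with the empty vector (log2 fold change -0.50 ± 0.07, adjusted p = 2.42e-06, edgeR). Uqcr11, a small subunit of complex III, had 45.8, 39, 53.0 and 39.9 CPM against 67.2, 58.1, 58.0 and 65.5 CPM (log2 fold change -0.49 ± 0.10, adjusted p = 0.000432, edgeR). Ndufb8, an accessory subunit of the membrane arm, had 35.6, 28.7, 37.0 and 34.3 CPM against 48.8, 47.3, 42.2 and 46.9 CPM (log2 fold change -0.45 ± 0.07, adjusted p = 1.58e-05, edgeR). In all these genes every library of the hairpin lay below every library of the vector, as in 40 of the 88 genes (23.7% of all tested genes were separated downward). The 6 genes that rose were Sdhc, Ndufb2, Ndufaf3, Sdhb, Ndufb3 and Ndufaf4, at 0.14 to 0.33 on the log2 scale, and of these Sdhc and Ndufaf3 were separated between the groups. Ndufaf3 had 26.5, 22.9, 26.4 and 23.8 CPM with the 5-mutation hairpin and 22.5, 20.4, 21.8 and 20.6 CPM with the vector (log2 fold change 0.23 ± 0.06, adjusted p = 0.00258, edgeR).

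With the unmutated hairpin fewer of these genes were called than with either mutated hairpin. Of the 88 genes, 5 rose and 14 fell, where 40.3% of all tested genes were called, 20.8% higher and 19.5% lower. The share that rose (5.68%) was below the background, and the share that fell (15.9%) was near it. The median log2 fold change was -0.02, against 0.01 over all tested genes. Of the protein-coding genes 25.3% were higher and 23.4% lower. With the replicate number as a block 10 rose and 16 fell. The count of rises was also 10 without the third library of this hairpin, 9 without the second and 10 without the third library of the 5-mutation hairpin. Beyond a 1.2-fold change 1 gene rose (1.14%, against 7.65% of all genes) and 4 fell (4.55%, against 8.48%). The pan-neuronal markers were lower with this hairpin in 6 of 8 cases, with sums of 5210 to 5410 CPM against 6070 to 6450 CPM, and their part in these values was not tested.

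A few members had much lower levels. Cox6c, a small nuclear subunit of complex IV, had 48.8, 46.2, 45.3 and 45.7 CPM with the unmutated hairpin and 110, 103, 104 and 103 CPM with the empty vector. It was 2.25-fold lower (log2 fold change -1.17 ± 0.05, adjusted p = 1.22e-13, edgeR), with a gap between the groups far wider than the spread within them. The other hairpins gave 135 ± 5.12 CPM (2-mutation, log2 fold change 0.36) and 78.2 ± 6.68 CPM (5-mutation, log2 fold change -0.42; SD, n = 4 each), so the 4 groups did not overlap. Ndufa6, a complex I subunit that binds the acyl carrier protein Ndufab1, had 21.1, 20.5, 19.0 and 18.6 CPM against 33.8, 31.4, 32.7 and 32.3 CPM (log2 fold change -0.72 ± 0.06, adjusted p = 1.9e-09, edgeR). Cox5a, a structural subunit of complex IV, had 83.2, 73.2, 73.2 and 71.2 CPM against 122, 112, 108 and 119 CPM (log2 fold change -0.62 ± 0.07, adjusted p = 1.7e-07, edgeR). Ndufa1, which had risen with the 2-mutation hairpin, had 18.9, 16.8, 16.7 and 16.9 CPM against 25.9, 21.9, 24.6 and 24.2 CPM (log2 fold change -0.48 ± 0.08, adjusted p = 3.01e-05, edgeR). All 4 genes were also lower with the unmutated hairpin than with the 2-mutation hairpin (log2 fold changes -1.54, -0.94, -0.75 and -1.21) and than with the 5-mutation hairpin (-0.75, -0.60, -0.33 and -0.45), each past the threshold, although Cox5a libraries of the unmutated and 5-mutation hairpins overlapped. The genes that rose were Cox6b2 at 0.63, Sdhb at 0.30, Ndufv1 at 0.22, Sdhc at 0.20 and Uqcrc2, a core protein of complex III, at 0.19 on the log2 scale.

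Summed over the subunits of a complex, the means of the 3 hairpins fell into 1 order for complexes I, III and IV and the ATP synthase. The 2-mutation hairpin had the highest mean and the 5-mutation hairpin the lowest. The libraries of the unmutated and 5-mutation hairpins overlapped in each of these complexes. In complex III those of the unmutated and 2-mutation hairpins overlapped too. For complex IV the sums were 1440, 1350, 1230 and 1260 CPM per kb with the unmutated hairpin, 1850, 1830, 1730 and 1780 with the 2-mutation hairpin, 1140, 952, 1280 and 1080 with the 5-mutation hairpin, and 1510, 1400, 1370 and 1430 with the empty vector. The 2-mutation libraries all lay above and the 5-mutation libraries all below those of the vector, while the unmutated libraries overlapped them. The complex I subunits summed to 1220 ± 81.9, 1450 ± 43.0 and 1080 ± 110 CPM per kb with the unmutated, 2-mutation and 5-mutation hairpins and 1240 ± 53.2 CPM per kb with the vector (SD, n = 4 each). The ATP synthase genes summed to 1030 ± 68.3, 1170 ± 41.4 and 953 ± 83.9 against 1050 ± 41.7 CPM per kb, and complex III to 542 ± 37.0, 599 ± 23.1 and 480 ± 50.4 against 545 ± 28.7 CPM per kb. The 2-mutation libraries of complex I (1390 to 1490, against 1190 to 1310) and the ATP synthase (1120 to 1210, against 1010 to 1100) lay above the vector libraries. The 5-mutation libraries of both overlapped the vector range, reaching 1210 and 1030 CPM per kb. In complex III the libraries of both mutated hairpins overlapped those of the vector. Complex II gave 216 ± 16.7, 212 ± 6.70 and 207 ± 17.7 against 201 ± 8.12 CPM per kb, and its libraries also overlapped. Without Sdhd, its member with the highest level, the 2-mutation sum was separated from the vector, at 146 to 158 against 121 to 130 CPM per kb (log2 ratio 0.28, against 0.08 with Sdhd). Without TMM scaling the order of the 3 hairpins was unchanged in complexes I, III and IV and the ATP synthase, while the unmutated sums of complexes I and III and the ATP synthase lay above the vector (log2 ratios 0.04, 0.05 and 0.04) in place of below it. The 5-mutation log2 ratios to the vector were then closer to 0, at -0.12 for complex I (-0.20 with scaling), -0.11 for complex III (-0.18) and -0.06 for the ATP synthase (-0.14), as were the 2-mutation ratios of complex III (0.08, against 0.14) and the ATP synthase (0.10, against 0.16). Without this scaling the 2-mutation libraries of the ATP synthase overlapped those of the vector, at 1050 to 1140 against 988 to 1100 CPM per kb. The sums of the complexes carry no test, since the members were chosen with results of these data known. The summed excitatory markers were ordered in the same way, with 1350 to 1450 CPM in the 2-mutation libraries, 528 to 586 CPM in the 5-mutation libraries and 1010 to 1100 CPM in the vector libraries, and their part in these values was not tested.

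**Figure D3:**
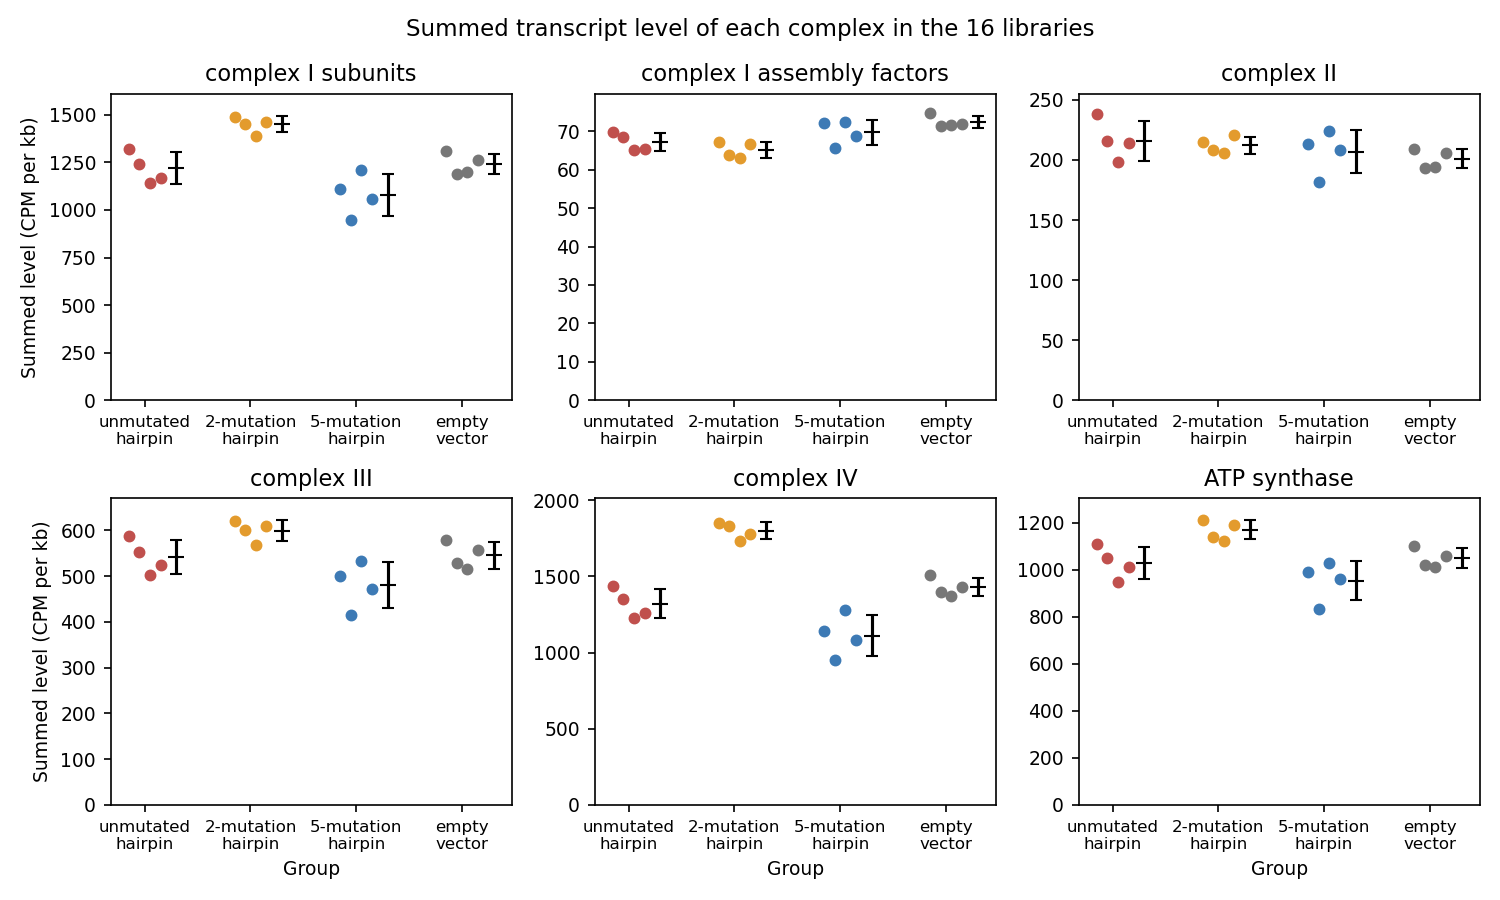
Summed level (y axis, TMM-scaled CPM per kb of merged exon length) of the subunits of each complex and of the complex I assembly factors in the 16 libraries, by group (x axis). Points are libraries and bars mean ± SD (n = 4), and for complex IV the 2-mutation libraries lie at 1730 to 1850 and the 5-mutation libraries at 952 to 1280.

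Complex II, the only complex encoded wholly in the nucleus and also an enzyme of the tricarboxylic acid cycle, did not move as a unit. Sdha, the flavoprotein that oxidises succinate, averaged 201 ± 10.8, 272 ± 7.56 and 178 ± 11.7 CPM with the unmutated, 2-mutation and 5-mutation hairpins and 224 ± 3.96 CPM with the empty vector (SD, n = 4 each). Its log2 fold changes over the vector were -0.16, 0.28 and -0.33, all past the threshold. Sdhc, a membrane anchor, rose with every hairpin, and was the sole one of the 88 genes called in a single direction by all of them. The matching share of all tested genes is not given here, so this count has no background to be read against. Sdhc had 101, 94.2, 81.9 and 91.9 CPM with the unmutated hairpin, 119, 111, 108 and 119 with the 2-mutation hairpin, 103, 88.6, 108 and 103 with the 5-mutation hairpin, and 86.0, 76.4, 74.8 and 83.8 with the vector. The log2 fold changes were 0.20 ± 0.07, 0.51 ± 0.07 and 0.33 ± 0.07, with adjusted p = 0.0181, 7.32e-07 and 0.000238 (edgeR), and the unmutated libraries overlapped those of the vector. The 3 comparisons share the vector libraries. Sdhd, the other anchor, fell with the 2-mutation hairpin (log2 fold change -0.31 ± 0.07) and was not called with the unmutated (0.13 ± 0.07) or 5-mutation hairpin (0.06 ± 0.07). Sdhb, the iron-sulfur subunit, rose with the unmutated (0.30 ± 0.06) and 5-mutation hairpins (0.22 ± 0.06) and was not called with the 2-mutation hairpin (0.13 ± 0.06).

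The core subunits of complex I, which bind the flavin and the iron-sulfur clusters and whose relatives are found in bacteria, followed the accessory subunits only in part. With the 2-mutation hairpin Ndufv2, Ndufs8 (-0.20 ± 0.07) and Ndufv1 (-0.14 ± 0.06), the NADH-oxidising flavin subunit, fell, and Ndufs1, Ndufs3 and Ndufs7 were not called. With the 5-mutation hairpin Ndufs8 (-0.34), Ndufv2 (-0.27), Ndufs1 (-0.19) and Ndufs3 (-0.18) fell, and with the unmutated hairpin Ndufv1 rose. Of the accessory subunits, 0 of 29 fell with the 2-mutation hairpin.

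Where a subunit has several genes, the forms differed in level and in direction. Cox6a2 had 5.55, 4.46, 4.71 and 4.61 CPM with the unmutated hairpin, 1.28, 0.818, 1.15 and 0.966 with the 2-mutation hairpin, 1.57, 1.45, 1.69 and 1.45 with the 5-mutation hairpin, and 5.51, 4.02, 4.59 and 4.63 with the empty vector. It was 4.42-fold lower with the 2-mutation hairpin (log2 fold change -2.14 ± 0.15, adjusted p = 1.89e-11, edgeR) and 3.04-fold lower with the 5-mutation hairpin (-1.61 ± 0.14, adjusted p = 1.99e-09, edgeR), and was not called with the unmutated hairpin (0.04 ± 0.13). The partner gene Cox6a1 was at 151 to 287 CPM per kb in the group means, against 1.55 to 7.11 CPM per kb for Cox6a2. In mouse brain Cox6a2 is known from parvalbumin interneurons, and the summed inhibitory markers were lower than in the vector libraries with all hairpins, at 135 to 257, 167 to 254 and 196 to 283 CPM against 515 to 594 CPM. Cox6a2 did not follow that list with the unmutated hairpin, and the part of cell composition was not tested. Cox6b2, known as the testis form of Cox6b1, had 7.76 ± 0.878, 7.95 ± 0.926 and 3.36 ± 0.535 CPM with the unmutated, 2-mutation and 5-mutation hairpins and 5.01 ± 1.14 CPM with the vector (SD, n = 4 each). It rose with the unmutated (0.63 ± 0.15) and 2-mutation hairpins (0.67 ± 0.14) and fell with the 5-mutation hairpin (-0.58 ± 0.15). Cox6b1 had log2 fold changes of -0.19, 0.40 and -0.37, all past the threshold, so the forms moved in opposite directions with the unmutated hairpin and in the same direction with the mutated hairpins.

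Atp5g1, Atp5g2 and Atp5g3 encode the same mature c subunit of the ATP synthase rotor. Atp5g3 was the most abundant, at 68.7, 91.7 and 63.9 CPM per kb with the unmutated, 2-mutation and 5-mutation hairpins and 71.7 CPM per kb with the vector. Atp5g1 and Atp5g3 rose with the 2-mutation hairpin (0.36 each) and fell with the 5-mutation hairpin (-0.31 and -0.17), whereas Atp5g2 was not called with either (-0.01 ± 0.10 and 0.13 ± 0.10). Cox7a2, the ubiquitous form, rose by 0.43 ± 0.06 with the 2-mutation hairpin and fell by 0.41 ± 0.06 with the 5-mutation hairpin, and Cox7a2l, which links complexes III and IV into supercomplexes, moved less (0.20 ± 0.06 and -0.23 ± 0.06). Cox4i1, a subunit at which ATP regulates complex IV, fell with both mutated hairpins, to 191 ± 6.41 and 178 ± 19.6 CPM, against 238 ± 14.0 CPM with the vector (SD, n = 4 each; log2 fold changes -0.32 and -0.42).

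Set directly against each other, the 2-mutation and 5-mutation hairpins differed in more of these genes than any other pair. Of the 88 genes, 66 were higher and 10 lower with the 2-mutation hairpin, where 65.9% of all tested genes were called, 32.3% higher and 33.6% lower. The share that was higher (75.0%) was above the background, also beyond a 1.2-fold change (53.4%, against 22.5%), and the median log2 fold change was 0.38, against -0.05 over all tested genes. Of the protein-coding genes 39.7% were higher and 34.9% lower, with a median of 0.04. Accessory subunits of complex I were higher in 27 of 29 cases and lower in 1, and the median over complex IV was 0.74. Cox6b2 (1.25 ± 0.15), Cox6a1 (0.93 ± 0.09) and Cox7b (0.87 ± 0.07) were highest, and Ndufaf2 (-2.34 ± 0.13), Ndufaf3 (-0.83 ± 0.06) and Ndufaf6 (-0.77 ± 0.09) lowest, all without overlap of the libraries. In all, 59 of the 88 genes were separated upward, against 30.0% of all tested genes. Of the 10 genes that were lower, 4 were assembly factors, and the others were Uqcrq, Cox6a2, Ndufv2, Sdhd, Ndufb2 and Ndufv1.

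**Figure D4:**
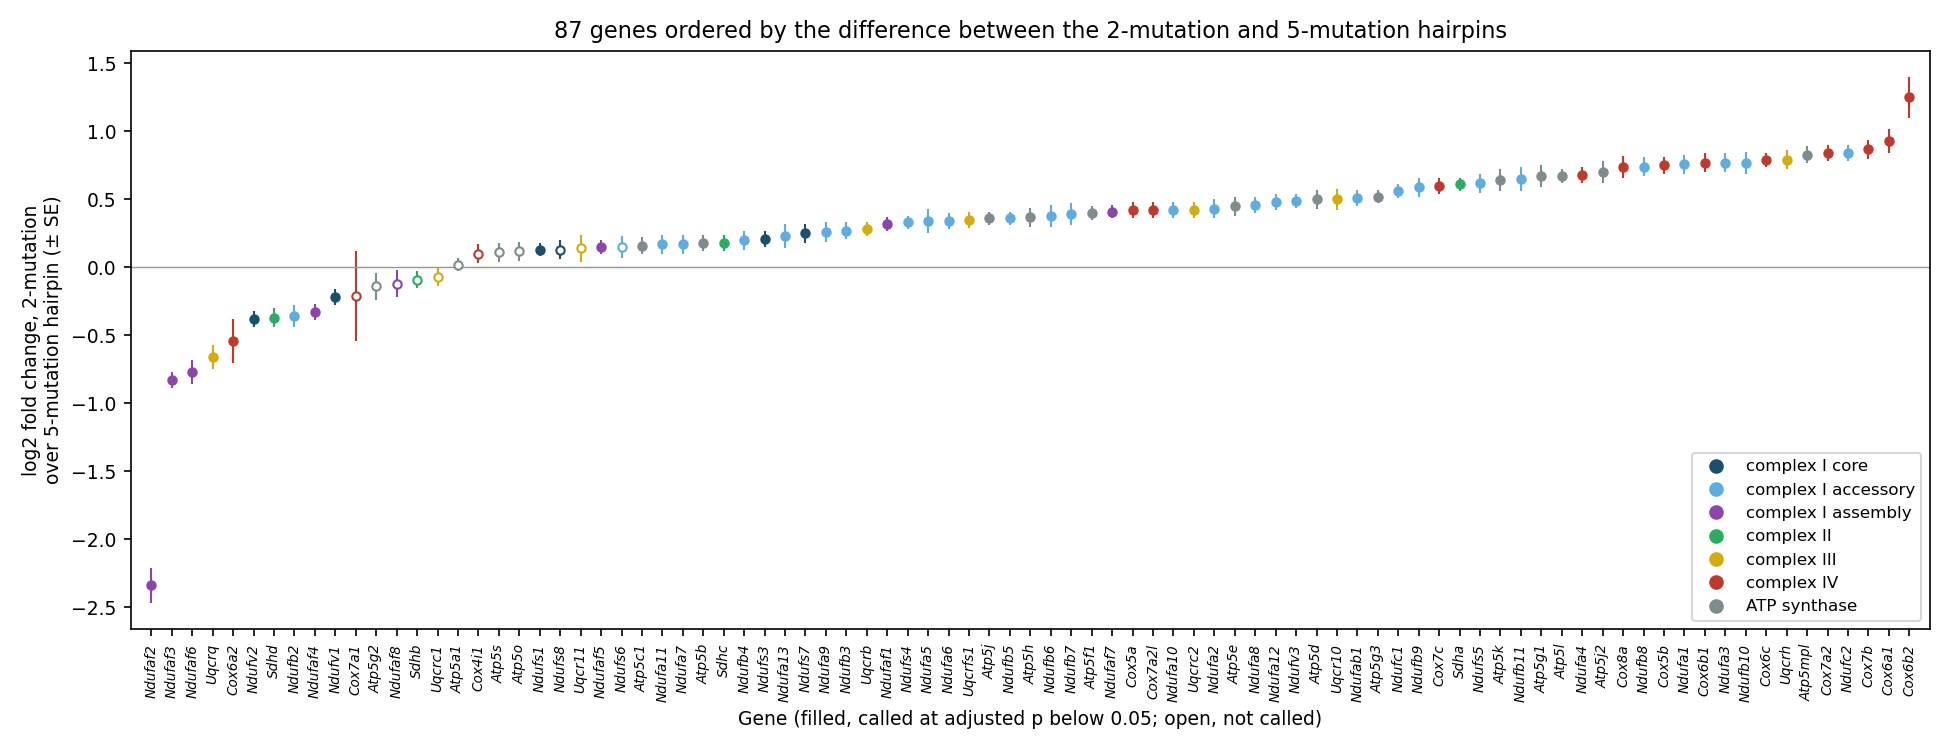
Log2 fold change of the 2-mutation over the 5-mutation hairpin (y axis, edgeR, ± SE) for 87 of the 88 genes in rank order (x axis), coloured by class, with filled points for genes past the threshold. Most genes lie above 0, and Ndufaf2 at -2.34 and Cox6b2 at 1.25 mark the ends.

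By the median over the 88 genes the unmutated hairpin lay between the other hairpins. Against the 2-mutation hairpin 14 genes were higher and 50 lower (62.7% of all tested genes were called, 31.2% higher and 31.5% lower, and of the protein-coding ones 33.6% and 39.1%), with a median of -0.23. Cox6c (-1.54 ± 0.05), Ndufa1 (-1.21 ± 0.08) and Ndufa6 (-0.94 ± 0.06) were lowest, and Cox6a2 (2.19 ± 0.15), Ndufaf2 (2.08 ± 0.13) and Uqcrq (0.96 ± 0.09) highest. Downward separation of the libraries was found for 46 of the 88 genes, against 30.3% of all tested genes. Against the 5-mutation hairpin 44 genes were higher and 8 lower (55.3% of all tested genes were called, 26.8% higher and 28.5% lower, and of the protein-coding ones 32.2% and 32.7%), with a median of 0.17. Cox6a2 (1.65 ± 0.14), Cox6b2 (1.21 ± 0.15) and Ndufb10 (0.55 ± 0.08) were highest, and Cox6c, Ndufa6 and Ndufa1 lowest. Without the second library of the 5-mutation hairpin, 36 genes were higher and 13 lower.

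Other genes of the pathway were read in the same fit. Their counts stand beside the shares of all tested genes called, which were 20.8% higher and 19.5% lower with the unmutated hairpin, 32.5% and 30.8% with the 2-mutation hairpin, and 28.4% and 26.5% with the 5-mutation hairpin. Of 47 assembly factors of the complexes outside the set, 5 rose and 10 fell with the unmutated hairpin, 21 rose and 10 fell with the 2-mutation hairpin, and 6 rose and 19 fell with the 5-mutation hairpin, which is 10.6% and 21.3%, 44.7% and 21.3%, and 12.8% and 40.4% of the list. Nubpl, which delivers iron-sulfur clusters to complex I, averaged 1.95 CPM with the 2-mutation hairpin, against 6.69 CPM with the vector (log2 fold change -1.78 ± 0.10). Taco1, an activator of translation of a mitochondrially encoded complex IV subunit, averaged 6.15 CPM with the 5-mutation hairpin, against 15.1 CPM (-1.30 ± 0.07). Atpaf1, an assembly factor of the ATP synthase, averaged 14.3, 34.0 and 13.9 CPM with the unmutated, 2-mutation and 5-mutation hairpins, against 19.7 CPM, and its log2 fold changes of -0.47, 0.78 and -0.50 passed the threshold. Among 77 mitochondrial ribosomal proteins, which make the subunits encoded in mitochondrial DNA, 12 rose and 5 fell, 47 rose and 11 fell, and 14 rose and 22 fell with the unmutated, 2-mutation and 5-mutation hairpins. The 2-mutation shares were 61.0% higher and 14.3% lower. The median log2 fold changes of this list were 0.01, 0.25 and -0.08.

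Enzymes that feed electrons into the chain gave a mixed picture. Among 20 electron carriers and partner enzymes, 7 rose and 7 fell, 11 rose and 5 fell, and 8 rose and 8 fell with the unmutated, 2-mutation and 5-mutation hairpins, which is 35% each way, 55.0% and 25.0%, and 40.0% each way. Gpd2, the mitochondrial glycerol phosphate dehydrogenase, averaged 135, 27.9 and 137 CPM against 99.5 CPM with the vector, rising with the unmutated (0.44 ± 0.05) and 5-mutation hairpins (0.46 ± 0.05) and falling with the 2-mutation hairpin (-1.84 ± 0.06). In the tricarboxylic acid cycle list of 19 genes, 5 rose and 4 fell, 13 rose and 3 fell, and 6 rose and 5 fell (26.3% and 21.1%, 68.4% and 15.8%, and 31.6% and 26.3%). Idh2, the mitochondrial NADP-dependent isocitrate dehydrogenase, moved like Gpd2, at 0.76, -1.05 and 0.89 on the log2 scale. For 25 genes of mitochondrial import the counts were 6 and 1, 12 and 7, and 4 and 7 (24.0% and 4.0%, 48.0% and 28.0%, and 16% and 28.0%), and Tomm20, a receptor of the outer membrane, fell by 0.63 ± 0.05 with the 5-mutation hairpin.

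Regulators of mitochondrial biogenesis did not move in 1 direction. Ppargc1a, the coactivator PGC-1alpha that drives respiratory gene expression, fell with every hairpin, to 32.4 ± 3.49, 17.0 ± 0.563 and 26.1 ± 1.17 CPM, against 53.2 ± 1.49 CPM with the vector (SD, n = 4 each). Its log2 fold changes were -0.72, -1.65 and -1.03, lowest with the hairpin that had most members higher. The part of Ppargc1a and of the other regulators in the members' levels was not tested. The orphan receptor Esrra rose with the 2-mutation (0.83 ± 0.06) and 5-mutation hairpins (0.21 ± 0.06), while its relative Esrrg fell with the unmutated (-0.96 ± 0.10) and 5-mutation hairpins (-1.62 ± 0.10) and rose with the 2-mutation hairpin (0.26 ± 0.10). Nrf1 and Gabpa, which encodes the DNA-binding part of GABP, fell with the 5-mutation hairpin (-0.34 ± 0.05 and -0.44 ± 0.05), and Gabpa rose with the 2-mutation hairpin (0.13 ± 0.05). Yy1 fell with the 2-mutation (-0.63 ± 0.04) and 5-mutation hairpins (-0.12 ± 0.04) and rose with the unmutated hairpin (0.10 ± 0.04). Tfam, which packages mitochondrial DNA, rose with the unmutated (0.27 ± 0.05) and fell with the 5-mutation hairpin (-0.23 ± 0.05). Of the 24 regulators, 6 rose and 4 fell, 10 rose and 7 fell, and 6 rose and 12 fell with the unmutated, 2-mutation and 5-mutation hairpins. With the unmutated (25.0% and 16.7%) and 2-mutation hairpins (41.7% and 29.2%) these shares were near those of all tested genes, and with the 5-mutation hairpin they were 25.0% and 50%.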

How the data were processed

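The deposited table holds raw read counts per gene for 16 libraries. Tools named in the submitters' processing notes are STAR 2.7.2b, featureCounts, edgeR, cutadapt 1.15, Trim Galore 0.6.0 and bcl2fastq 2.20.0.422, with build GRCm38.p6 and without their order. Per the labels' protocols, the libraries were directional and made from 100 ng of RNA depleted of ribosomal RNA. How featureCounts handled strand and multiply mapped reads, and with which gene models, is not given in the sources used here. Gene IDs were matched to a GENCODE annotation of GRCm38, and 55154 of 55335 matched (54587 with the same version).

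Counts were fitted with edgeR 4.0.16 (R 4.3.3, limma 3.58.1) in 1 quasi-likelihood model over all 16 libraries, with TMM factors, the filterByExpr filter and robust dispersion, after testing on simulated data. P-values were adjusted by Benjamini-Hochberg over 19479 genes, and a gene was called at an adjusted p below 0.05. Fold changes beyond 1.2-fold were called with glmTreat in the same fit. Tables and figures used Python 3.11.15, pandas 2.3.3, numpy 2.4.6 and matplotlib 3.10.9. Errors are the SD between libraries or the SE of the fit, at 33795369 to 49824569 counts per library.

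Levels are TMM-scaled CPM, divided by merged exon length where compared between genes. The genes, pathway and marker lists were chosen with earlier results of these data known, and a list is described by its counts, without a test of the list. Genes were named by a rule: in each comparison with the vector the 4 highest and 4 lowest called genes whose libraries did not overlap, in each comparison of hairpins the 3 highest and 3 lowest, all Sdh genes and paralogs, and the 3 highest and lowest levels. Others, the core subunits and assembly factors among them, were named to complete a class after their values were seen. The values of 1 gene of the set are not reported here. Same-numbered libraries deviated together (correlation above 0.1) in 21 of 24 pairs, from -0.03 to 0.35. All pairs passed between the unmutated hairpin, the 2-mutation hairpin and the vector. With the 5-mutation hairpin only the pairs of the third libraries failed, at -0.03, 0.06 and 0.01. A replicate block was therefore read as an alternative. Alternatives were DESeq2 1.42.0, other scaling factors, filters and gene sets, 2 groups only, the block, and leaving out each library.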

Additional observations from a re-analysis of the deposited data

Results flagged for a closer look

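Among 160 sets of 4 libraries of the named genes, 5 had a library set apart from the other libraries of its group by Dixon's criterion, and chance alone flags about 1 in 20 such groups. In the 5-mutation group this was the second library, with Atp5a1 at 641 CPM against 736 to 752 CPM in the other libraries. In the unmutated group these were Atp5g1 at 151 CPM against 129 to 130 CPM, Ndufa1 at 18.9 CPM against 16.7 to 16.9 CPM, and Uqcrq at 95.6 CPM against 80.6 to 82.9 CPM, all above the other libraries. Ndufs1 in the unmutated group was set apart downward, at 119 CPM against 130 to 132 CPM.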

How the results depend on the processing

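Higher calls with the unmutated hairpin over the vector numbered 5 in the fit as reported, 10 with upper-quartile factors, 8 with no low-count filter, 10 with the 2 groups only and 10 with the replicate block. Against a 1.2-fold change, which lowered the counts in every comparison, the higher and lower calls numbered 1 and 4 (unmutated over vector), 21 and 6 (2-mutation over vector), 0 and 14 (5-mutation over vector), 8 and 30 (unmutated over 2-mutation), 11 and 3 (unmutated over 5-mutation), and 47 and 7 (2-mutation over 5-mutation). Leaving out each library in turn gave 4 to 10 higher and 11 to 19 lower for unmutated over vector, 48 to 52 and 11 to 15 for 2-mutation over vector, 4 to 7 and 45 to 61 for 5-mutation over vector, 11 to 17 and 44 to 52 for unmutated over 2-mutation, 36 to 56 and 6 to 13 for unmutated over 5-mutation, and 58 to 69 and 10 to 11 for 2-mutation over 5-mutation. The 13 lower calls of unmutated over 5-mutation came without the second 5-mutation library. Without a single library the medians stayed at 0.20 to 0.24 for 2-mutation over vector, -0.25 to -0.15 for 5-mutation over vector and 0.32 to 0.43 for 2-mutation over 5-mutation. With the replicate block the other comparisons gave 52 and 14, 6 and 56, 16 and 51, 46 and 10, and 67 and 10 calls, each within 1.5 times the count without it. DESeq2 gave 5 and 15, 49 and 13, 5 and 58, 14 and 50, 45 and 7, and 66 and 10. Uqcrc2 and Sdhb (unmutated) and Ndufaf3 and Sdhc (5-mutation) were not called against a 1.2-fold change. None of the results changed direction as a called value. Without TMM scaling the summed assembly factors of the 5-mutation hairpin gave a log2 ratio of 0.02 to the vector, against -0.05 with it, so their direction is not settled. The causes of these changes were not tested.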

Other observations

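Many genes of the respiratory chain share a start region with a gene read in the opposite direction, and 33 of the 88 genes have a tested protein-coding neighbour of this kind whose start lies within 1000 bases. These pairs were looked for after the values of the 88 genes were seen. Of 15 such genes that rose with the 2-mutation hairpin, the neighbour also rose for 9, fell for 5 and was not called for 1. Of 21 that fell with the 5-mutation hairpin, the neighbour fell for 7, rose for 5 and was not called for 9. Of all tested protein-coding genes, 40.0% rose and 32.4% fell with the 2-mutation hairpin, and 32.9% rose and 31.4% fell with the 5-mutation hairpin. The shares of neighbours that fell in both cases were thus near the background. The 9 of 15 that rose with the 2-mutation hairpin are a larger share than 40.0%, and this difference was not tested. Neighbours also rose where the gene of the set did not. Of 5 such genes that fell with this hairpin, the neighbour rose for 2, fell for 2 and was not called for 1. Beside genes that were not called, Kin, Kctd2, Gabpa, Vmac, Ik, Rps28, Esf1, Kbtbd4 and Mrpl36 rose. Haus1, Tssk6, Eef1b2 and Gm10767, also beside such genes, were not called. The larger share is thus not particular to genes that rose. Uqcrh and Lrrc41, an adaptor of a ubiquitin ligase, start 198 bases apart and moved alike. Lrrc41 had 110, 109, 106 and 109 CPM with the 2-mutation hairpin and 63.1, 60.9, 64.4 and 64.6 CPM with the vector, a log2 fold change of 0.78 ± 0.05 (adjusted p = 2.22e-11, edgeR), next to 0.72 for Uqcrh. Ndufaf2 and Ercc8, a gene of transcription-coupled DNA repair, start 108 bases apart and moved in opposite ways. Ercc8 had 22.1, 20.6, 20.4 and 21.5 CPM with the 2-mutation hairpin and 19.6, 17.5, 16.1 and 16.2 CPM with the vector (log2 fold change 0.29 ± 0.06, adjusted p = 0.000187, edgeR), beside -2.44 for Ndufaf2. Opposite directions with the 2-mutation hairpin were also seen for Ndufb3 (0.46) and Fam126b (-1.49), whose starts lie 61 bases apart, for Ndufa4 (0.38) and Phf14 (-0.97), 312 bases apart, and for Ndufv3 (0.30) and Wdr4 (-0.80), 135 bases apart. Among the 9 pairs that rose together were also Ndufb5 (0.20) with Mrpl47 (0.70) and Ndufb9 (0.37) with Tatdn1 (0.46).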
